A study of Homo sapiens with 20 samples.

Results

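The TRIM (tripartite motif) genes encode proteins that share an N-terminal RING finger, 1 or 2 B-box zinc fingers and a coiled coil, followed by a C-terminal region that differs between members. The RING finger makes most of them ubiquitin ligases, enzymes that pass ubiquitin to a substrate protein, and the C-terminal region largely chooses the substrate. The family is best known for innate immunity against viruses, where several members bind viral proteins or set the activity of the cytosolic RNA sensors, and other members act in chromatin silencing, RNA repression and the cytoskeleton. Members were the genes whose symbol is TRIM followed by a number and an optional letter and that were named alone by at least 1 probe set of the array. There were 56 such genes among 19353 genes measured, read by 122 probe sets, and each gene was read by its brightest probe set, judged by the mean of the 20 arrays. TRIM34, TRIM39, TRIM43, TRIM43B, TRIM48, TRIM49, TRIM49C, TRIM73 and TRIM74 were named only by probe sets that also name another gene and are not described.

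The 20 arrays were Affymetrix U133 Plus 2.0 arrays of RNA from HEK293 cells, a human embryonic kidney line, in 4 groups of 5. All cells were, per the labels, Flp-In T-REx HEK293 cells, a line built to take up a doxycycline-controlled transgene at 1 engineered site, and 10 of the samples came from a stable line that carried EGFP-tagged human ZFP36, an RNA-binding protein that binds AU-rich sequences and promotes mRNA decay. Induced cells were EGFP-ZFP36 cells kept for 16 h with 1 µg/ml doxycycline and sorted for green fluorescence. Mock-induced cells were EGFP-ZFP36 cells given water and sorted without the fluorescent cells, and parental cells, which lack the transgene, received doxycycline or water (vehicle). Cells of several flasks were pooled for a sample, and the flasks with doxycycline were less confluent with more rounded and floating cells, so that sort gate, cell density and ZFP36 cannot be told apart in induced cells. The single ZFP36 probe set read 4.56 to 5.78 in induced, 4.85 to 5.92 in mock-induced and 2.77 to 4.54 in parental arrays. The sources used here do not say whether it reads the transgene, whose doxycycline-induced protein the paper showed by western blot.

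Values are on the log2 scale after normalization by the authors with GCRMA, so a difference of 1 is a 2-fold difference, and the lowest value, 2.19, stands for no signal above background. A level can be compared between arrays but not between genes, because each probe set has its own brightness. Fewer cells with an mRNA and less of it per cell cannot be told apart in these bulk samples. The neurofilament gene NEFL, vimentin (VIM) and N-cadherin (CDH2), all known in HEK293 cells, had group means of 10.77 or more. NEFM read 12.3 in both parental groups but 3.87 in mock-induced and 5.81 in induced cells, and PAX2 read 4.86 in induced cells and 2.59 to 2.77 in the other groups. The 5 blood cell markers that the array measures were at 2.19 to 2.21 in every group mean, and the fibroblast and endothelial markers DCN, LUM, PECAM1, VWF and CDH5 at 2.19 to 2.44, whereas the collagen genes COL1A1 and COL3A1 were 2.31 and 3.08 higher in induced than in mock-induced cells. Spiked poly-A controls read 8.80 ± 0.24 in induced and 8.43 ± 0.18 in mock-induced arrays, and the 3′ minus 5′ signal of actin was 1.31 ± 0.13 against 1.52 ± 0.14 (SD, n = 5). The part of these in the TRIM differences was not tested, apart from the centring on spiked controls given below.

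Of the 56 members, 37 had a mean above 4.5 in at least 1 group and were tested together with the other genes past that filter, 10834 in all. The other 19 gave little or no signal. TRIM22, TRIM40, TRIM50, TRIM51, TRIM54, TRIM55, TRIM63, TRIM65 and TRIM67 were within 0.02 of the lowest value on all 20 arrays, and TRIM10, TRIM17, TRIM29, TRIM31, TRIM42 and TRIM61 on 19 of them. TRIM15 (3.49 to 3.54), TRIM47 (2.25 to 2.68), TRIM66 (2.71 to 2.98) and TRIM72 (2.44 to 2.47) had group means between the lowest value and the filter. TRIM54, TRIM55 and TRIM63 encode the MURF proteins of muscle, and TRIM22 is an interferon-induced antiviral gene whose neighbours TRIM5 and TRIM6 on chromosome 11 were both detected. On chromosome 6 TRIM31, TRIM40, TRIM10, TRIM15 and TRIM26 follow each other with 0 protein-coding genes between them in the GRCh38.p14 gene table of RefSeq, and TRIM26 alone among them passed the filter.

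Induction of EGFP-ZFP36 was accompanied by lower levels of 7 members and higher levels of 13. TRIM24, TRIM5 and TRIM59 fell by the largest measured folds, TRIM58 fell to levels under the filter, and the largest rises were those of TRIM26, TRIM32, TRIM16 and TRIM38. Calls rested on limma's moderated test over the 10834 genes, with Bonferroni adjustment and a limit of 0.01. The 20 called members were 54.1% of those tested, against 51.9% of all genes (23.1% lower and 28.8% higher), so that the family was called about as often as the rest. By Benjamini-Hochberg adjustment at 0.05, 33 members and 87.7% of all genes were called. The median difference was 0.50 for the 37 members and 0.20 for all genes. Induced and mock-induced arrays did not overlap for 31 members, against 80.0% of all genes. Each of the 31 had the smallest two-sided exact permutation p that 5 against 5 arrays allow, 0.00794. With arrays centred on the poly-A controls, which lowered the median of all genes from 0.20 to −0.16, the split was 10 members lower and 8 higher, and 0 of the 20 called members changed sign. The test was unpaired, although the study prepared treated and control cells in each of its repeats on separate days. With replicate number as a block 12 of the 20 stayed called, TRIM24 and TRIM5 not among them.

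**Figure D1:**
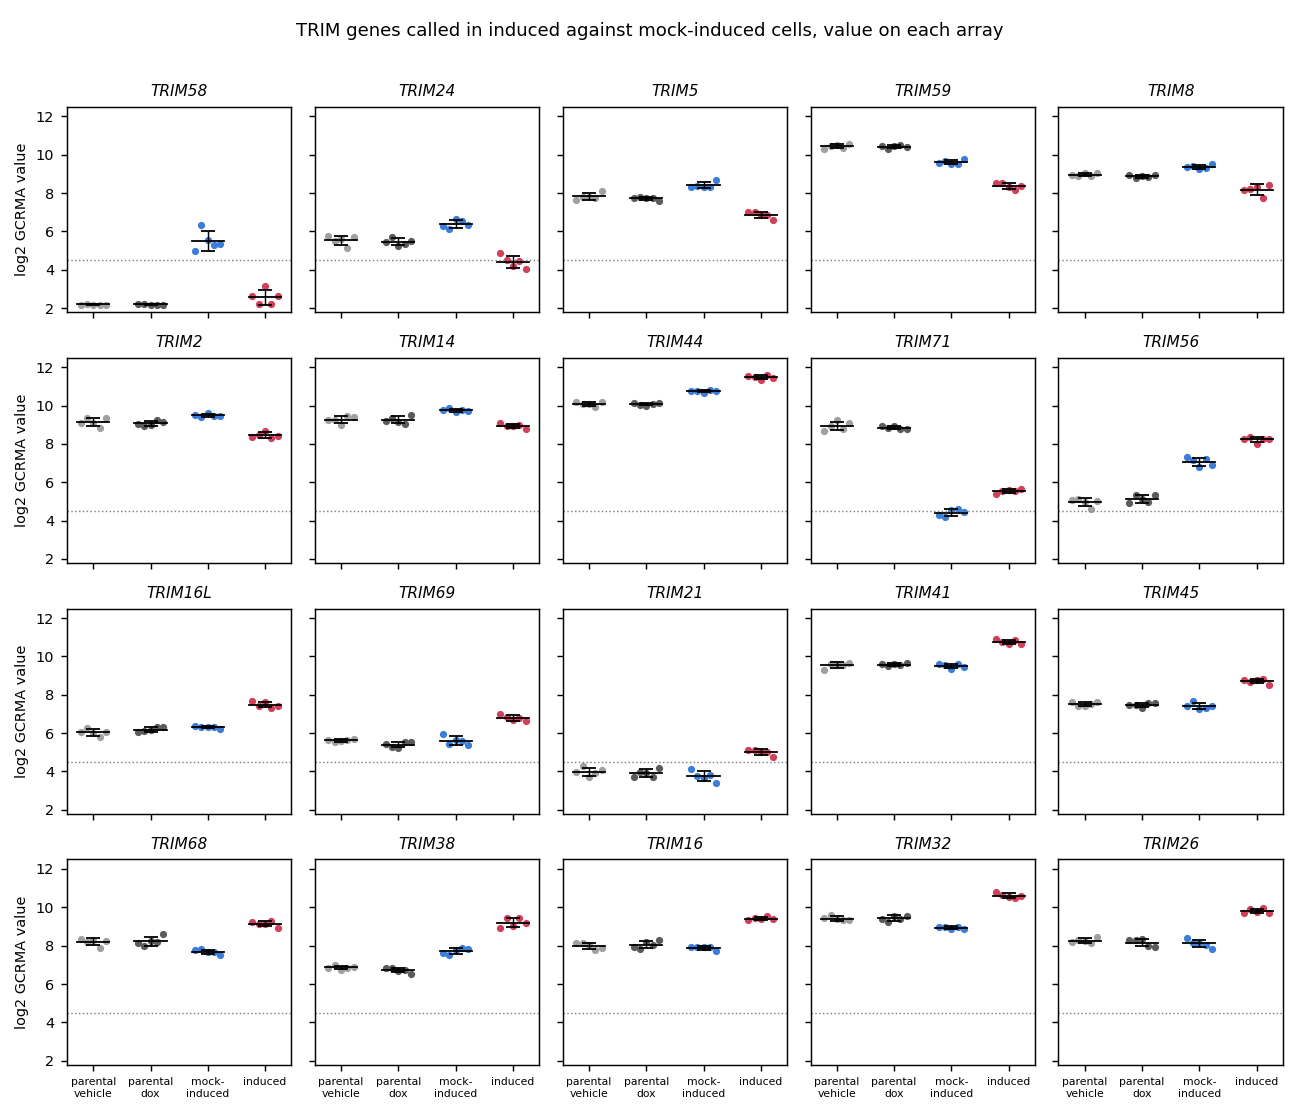
Levels of the 20 TRIM genes called in induced against mock-induced cells, ordered by log2 difference from negative to positive. The vertical axis is the log2 GCRMA value, points are single arrays, horizontal lines with bars are the mean ± SD of 5 arrays, and the dotted line is the filter of 4.5. Induced arrays (red) lie clear of mock-induced arrays (blue) in every panel. Heights cannot be compared between panels.

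TRIM58, whose protein acts in late red cell maturation, passed the filter through the mock-induced group alone. It was tested only because it was high there, and the counts of every comparison that uses mock-induced arrays include it. Mock-induced arrays read 4.96, 6.33, 5.53, 5.29 and 5.34, and induced arrays read 2.65, 2.20, 3.16, 2.22 and 2.60. All 10 parental arrays were at the lowest value, so only mock-induced arrays stood above 4.5. The difference was −2.93 (SE 0.25, adjusted p = 0.00231), and because the induced arrays were all under 4.5 it is given as at least 1.99-fold lower.

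TRIM24 encodes a chromatin reader of the PHD finger and bromodomain class that binds nuclear receptors. It read 6.31, 6.12, 6.66, 6.53 and 6.33 in mock-induced arrays and 4.85, 4.51, 4.19, 4.47 and 4.03 in induced arrays. The groups were well apart, and the level fell 3.95-fold (log2 difference −1.98, SE 0.15, adjusted p = 0.000679), with 3 of 5 induced arrays under the filter. Parental cells lay between them, at 5.45 ± 0.18 with doxycycline and 5.54 ± 0.24 with vehicle (SD, n = 5). TRIM28 (KAP1) is the corepressor that KRAB zinc-finger proteins recruit to silence repeats. Its level was 11.51 ± 0.07 in mock-induced and 12.11 ± 0.12 in induced cells, a difference of 0.60 (SE 0.06) that missed the threshold (adjusted p = 0.0141). TRIM33, which acts in TGF-beta signalling through SMAD proteins, read 11.20 ± 0.11 and 10.71 ± 0.09, a difference of −0.49 (SE 0.06, adjusted p = 0.147) by its brightest probe set. The fourth gene of this class, TRIM66, was not tested. So by calls on the brightest probe set 1 of 3 tested members of the class fell and none rose (33.3% called, against 51.9% of all genes). Other probe sets of TRIM33 were called lower, as given below.

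TRIM5, whose alpha isoform recognizes retroviral capsids, fell 2.89-fold. Mock-induced arrays read 8.30, 8.35, 8.34, 8.32 and 8.68 and induced arrays 7.02, 7.02, 6.84, 6.84 and 6.62, so the highest induced array was over 1 unit below the lowest mock-induced array. The log2 difference was −1.53 (SE 0.10, adjusted p = 8.41e-05), and −0.72 when averaged with its other probe set, which did not pass the filter. TRIM59, a membrane-anchored member, fell 2.36-fold, from 9.62 ± 0.12 to 8.38 ± 0.16 (SD, n = 5, adjusted p = 0.000156). TRIM8, a regulator of cytokine signalling, fell from 9.36 ± 0.11 to 8.18 ± 0.27 and TRIM14, an adaptor of the antiviral protein MAVS that has no RING finger, from 9.76 ± 0.08 to 8.95 ± 0.10. TRIM2, a neuronal ligase with NHL repeats, fell from 9.48 ± 0.07 to 8.45 ± 0.15 by its brightest probe set. The falls of TRIM2 and TRIM14 rested on the choice of probe set. Averaged over all their probe sets, including some under the filter, they were −0.04 and −0.17 and not called. TRIM2 was called higher (1.70) with the _s_at and _x_at types left out. TRIM8 had an adjusted p near the threshold (0.00871).

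The 13 members that rose had differences between 0.73 and 1.68. TRIM26, which acts in the response to viral nucleic acid, read 8.38, 8.15, 8.16, 8.06 and 7.84 in mock-induced arrays and 9.70, 9.89, 9.74, 9.95 and 9.72 in induced arrays. Its lowest induced array stood well over its highest mock-induced array, and the rise was 3.21-fold (SE 0.09 on the log2 scale, adjusted p = 2.58e-05). Both parental groups were at the mock-induced level, 8.16 ± 0.20 and 8.26 ± 0.12 (SD, n = 5).

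TRIM32, an NHL repeat ligase mutated in a form of limb-girdle muscular dystrophy, had the smallest adjusted p of the family. It read 9.00, 8.97, 8.85, 8.98 and 8.88 in mock-induced arrays and 10.81, 10.62, 10.52, 10.50 and 10.57 in induced arrays. All 5 induced arrays stood far above the mock-induced ones, and the level rose 3.18-fold (adjusted p = 4.68e-07). TRIM71, the NHL repeat protein LIN41 that represses mRNAs in stem cells and is a target of let-7, rose from 4.40 ± 0.18 to 5.54 ± 0.09, with 3 of 5 mock-induced arrays under 4.5. TRIM3, the remaining NHL member, was at 4.29 ± 0.11 and 4.85 ± 0.22 and was not called. The NHL class therefore held 1 fall and 2 rises among 4 tested members (75% called, against 51.9% of all genes).

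TRIM16, which acts in the autophagy of damaged lysosomes, read 7.95, 7.91, 7.96, 7.95 and 7.70 in mock-induced arrays and 9.34, 9.43, 9.37, 9.54 and 9.39 in induced arrays, a 2.87-fold rise (adjusted p = 9.2e-07). The groups lay more than 1 unit apart. TRIM16L, a truncated copy of TRIM16 on the same chromosome, rose 2.27-fold, from 6.31 ± 0.06 to 7.49 ± 0.15. The sequences of the pair are close, so their probe sets may not tell them apart, and the 2 rises, both included in every count given here, may be 1 signal. TRIM38, a negative regulator of Toll-like receptor and interferon signalling, read 7.61, 7.52, 7.80, 7.85 and 7.85 in mock-induced arrays and 8.93, 9.43, 9.03, 9.44 and 9.20 in induced arrays. All induced arrays were higher by over 1 unit, a 2.79-fold rise (adjusted p = 0.000673).

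TRIM68, a coactivator of the androgen receptor, rose 2.74-fold, from 7.68 ± 0.12 to 9.13 ± 0.13, which is also above both parental groups (8.23 ± 0.24 and 8.20 ± 0.19). TRIM45, a member with a filamin domain, rose 2.45-fold (7.42 ± 0.17 to 8.71 ± 0.12). TRIM41, which ubiquitinates protein kinase C, rose 2.38-fold (9.51 ± 0.11 to 10.76 ± 0.12). TRIM69, a centrosomal and testis protein, rose 2.29-fold (5.60 ± 0.23 to 6.80 ± 0.15). TRIM44, which has no RING finger and carries a ubiquitin-protease zinc finger, had the smallest rise, 1.66-fold (10.74 ± 0.06 to 11.48 ± 0.11). TRIM56, which acts on the DNA sensing pathway, went from 7.07 ± 0.21 to 8.24 ± 0.14. TRIM21, the cytosolic receptor for antibody-coated virus, read 4.13, 3.79, 3.66, 3.81 and 3.40 in mock-induced arrays, all under 4.5, and 5.14, 5.13, 5.02, 4.99 and 4.74 in induced arrays. It passed the filter through the induced group alone, so it was tested only because it was high there, and the counts of rises include it. Its rise is given as at least 1.42-fold, and its adjusted p of 0.00998 lay at the edge of the threshold. TRIM41 neighbours TRIM7 and TRIM52 on chromosome 5, and neither was called (differences of −0.24 and 0.08). The calls of TRIM8, TRIM21, TRIM56, TRIM58 and TRIM69 were lost when some single arrays were left out, as given below, while their direction was kept.

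Each member was put in 1 domain class only, so a class need not hold every member that carries its domain. Among the 19 tested members of the PRY-SPRY class, named for the substrate-binding fold of many antiviral members, 3 fell and 8 rose, TRIM16 and TRIM16L among them (57.9% called, near the 51.9% of all genes). A list of 9 antiviral members held 7 tested genes, of which TRIM5 fell, TRIM21, TRIM26, TRIM38 and TRIM56 rose, and TRIM25 and TRIM6 were not called (71.4% called, against 51.9% of all genes). The others, TRIM22 and TRIM34, had no tested probe set of their own. The list was chosen with earlier results of these data known and leaves out TRIM14, which fell, so its share describes the list alone. TRIM25, the ligase that activates the RNA sensor RIG-I, read 9.54 ± 0.13 in mock-induced and 9.11 ± 0.13 in induced cells (difference −0.43, SE 0.08, adjusted p = 1). TRIM6 read 5.01, 4.69, 5.32, 5.06 and 4.94 against 4.42, 3.64, 4.24, 3.45 and 3.73. Its groups did not overlap, yet the difference of −1.11 (SE 0.19) did not pass (adjusted p = 1).

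Counts in the smaller classes were 0 of 3 for the COS box members, 1 fall of 2 for the transmembrane members, 1 rise of 2 for the MATH, ARF or filamin members and 1 fall and 2 rises of 4 for those with no named C-terminal domain. Of all genes tested 51.9% were called, and these classes are too small to set against that share. TRIM9, a COS box protein of neurons, missed the threshold narrowly (difference −1.23, SE 0.12, adjusted p = 0.0105), with 9.58 to 9.93 in mock-induced and 8.23 to 8.91 in induced arrays. The other 16 uncalled members lay between −1.11 and 0.61. By their brightest probe sets TRIM11 (0.03) and TRIM52 (0.08) had the smallest differences, with 95% confidence intervals of −0.12 to 0.19 and −0.05 to 0.22. Another probe set of TRIM11 was higher, as given below. Array values of the 2 groups overlapped for TRIM4, TRIM7, TRIM11, TRIM35, TRIM46 and TRIM52.

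A further 3 uncalled members had induced arrays that were all above the mock-induced arrays and near the parental level. TRIM27, a ligase of endosomal transport, read 10.47 ± 0.06 in mock-induced, 11.02 ± 0.11 in induced and 10.93 ± 0.08 in parental vehicle cells (adjusted p = 0.0216). TRIM37, of the MATH domain, read 11.29 ± 0.11, 11.82 ± 0.05 and 11.75 ± 0.07 (adjusted p = 0.021), and TRIM62 4.25 ± 0.27, 4.85 ± 0.27 and 4.84 ± 0.34. TRIM13, anchored in the endoplasmic reticulum, read 9.49 ± 0.05, 9.99 ± 0.09 and 9.03 ± 0.15 (adjusted p = 0.0126), so its parental level was the lowest of the 3. TRIM11, a ligase for aggregated proteins, had means of 9.72 to 9.86 over the 4 groups by its brightest probe set. TRIM7, which binds glycogenin, had overlapping groups in the stable line, at 4.31 to 4.89 in mock-induced and 3.65 to 4.80 in induced arrays.

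**Figure D2:**
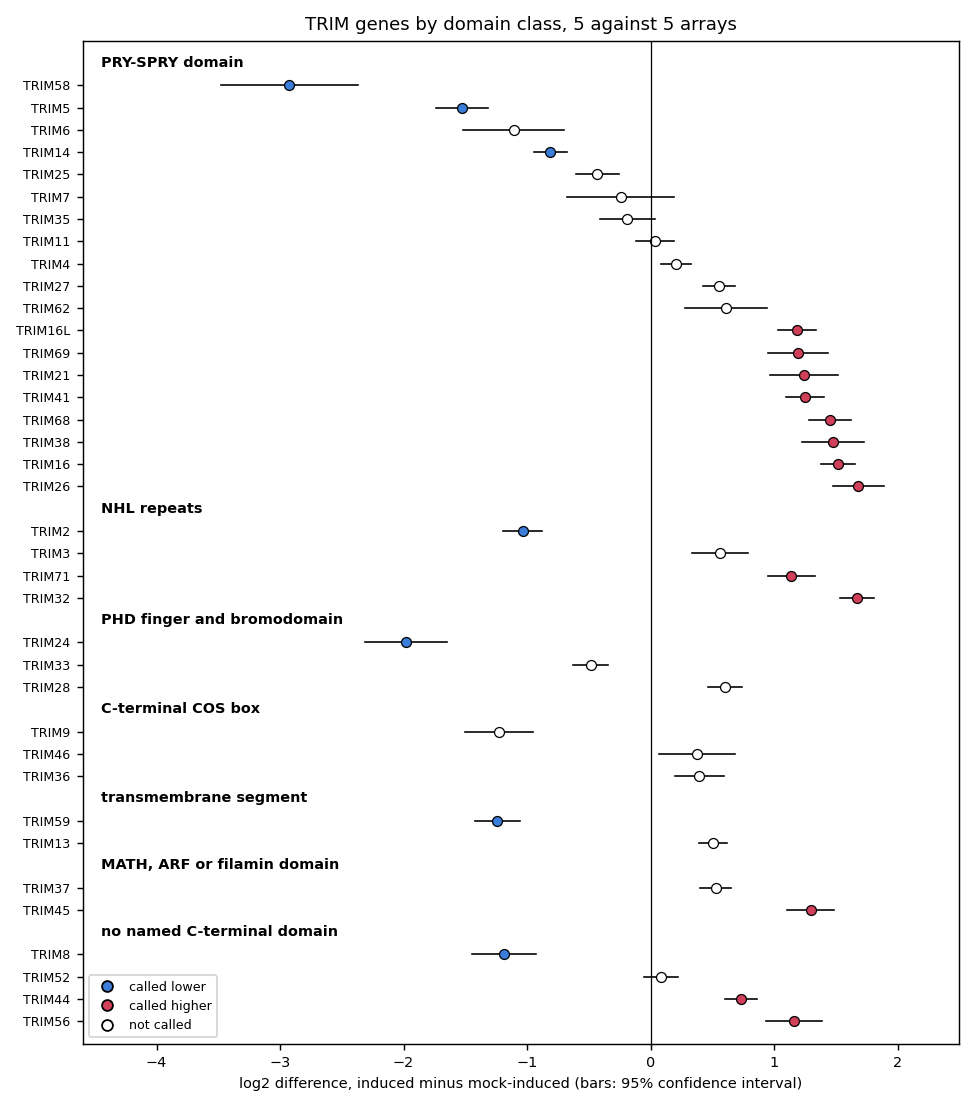
Difference in log2 level, induced minus mock-induced, for the 37 tested TRIM genes, grouped by domain class. Points are limma estimates from 5 against 5 arrays, bars are 95% confidence intervals, and fill gives the call (blue 7 lower, red 13 higher, white 17 not called). Falls and rises occur side by side in the PRY-SPRY, NHL and no named domain classes.

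Several members had more than 1 tested probe set, and every probe set was also tested on its own over 18639 probe sets, a choice made after the values were seen. In that fit 44.0% of all probe sets were called, 21.8% lower and 22.1% higher, and of the probe sets that stand for the 37 members 6 were lower and 12 higher. TRIM33 had 2 probe sets that fell by 1.36 and 1.09 and were called, while its brightest, at −0.49, was not. TRIM37, a peroxisomal and centrosomal ligase, had a dimmer probe set that rose by 2.15 and a brightest one at 0.53 that was not called. TRIM2 had 3 probe sets between −1.03 and −0.66 and 1 at 1.70 that missed the threshold (adjusted p = 0.0152), and TRIM13 had values from −1.11 to 0.50. The 2 tested probe sets of TRIM14 read −0.81 and 0.13. For TRIM11 the brightest probe set read 0.03 and the other 1.01, which missed the threshold (adjusted p = 0.0176). For TRIM38, TRIM44, TRIM45, TRIM56 and TRIM32 all tested probe sets had positive differences, and both of TRIM8 were negative. Which transcript forms these probe sets read was not tested.

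**Figure D3:**
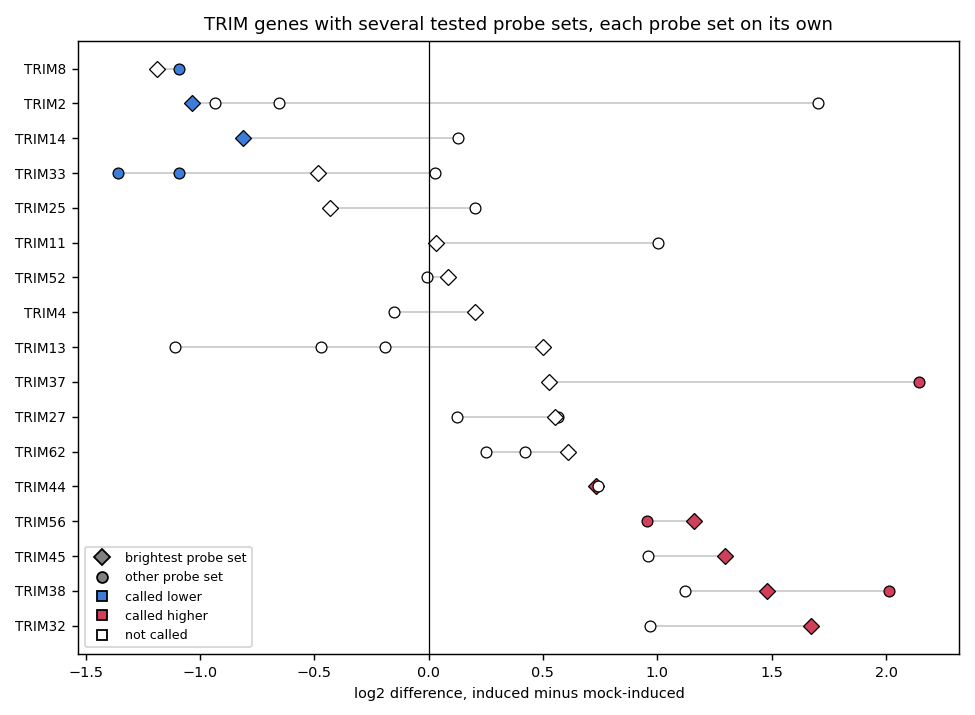
Difference in log2 level, induced minus mock-induced, for each tested probe set of the 17 TRIM genes with more than 1. Diamonds are the probe sets that stand for the gene, circles the others, and colour gives the call with every probe set tested on its own. TRIM2, TRIM13, TRIM14, TRIM25 and TRIM33 have probe sets on both sides of 0, TRIM4 and TRIM52 likewise but close to it.

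Doxycycline alone was assessed in parental cells. In limma's test 0 of the 37 members were called, as were 0% of all genes, and Benjamini-Hochberg adjustment at 0.05 also gave 0. The 2 parental groups overlapped for all 37 members, against 0.203% of all genes that did not overlap. At an unadjusted p under 0.05 there were 2 members, TRIM69 and TRIM35, against 2.22% of all genes. In the interaction model over all 20 arrays, 21 members had a doxycycline difference that was not the same in the 2 lines (56.8% against 47.9% of all genes), 7 lower and 14 higher in EGFP-ZFP36 cells, against 22.1% and 25.8% of all genes. By Benjamini-Hochberg adjustment 81.5% of all genes were called there. TRIM9, TRIM28 and TRIM37 were called there though not in induced against mock-induced cells, and TRIM14 and TRIM56 the other way round. Centring arrays on the poly-A controls, whose SD among parental vehicle arrays was 0.63, left the median interaction value of the members near its size (0.44 in both) but raised its standard error, for TRIM26 from 0.14 to 0.37. Of the 21, 2 (TRIM24 and TRIM58) then stayed called. With arrays centred on the hybridization controls 5 lower and 6 higher were called, and the members' median was 0.25.

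The EGFP-ZFP36 line differed from its parent before any doxycycline was given. Mock-induced against parental vehicle cells gave 3 members lower and 7 higher (27.0% of the 37, against 24.0% of all genes, 10.9% lower and 13.2% higher). Mock-induced and parental vehicle arrays did not overlap for 23 members, against 63.3% of all genes. By Benjamini-Hochberg adjustment 12 members were lower and 16 higher, against 74.9% of all genes called. With every probe set tested on its own 17.1% of all probe sets were called, 6.88% lower and 10.2% higher. In that fit 4 of the brightest TRIM probe sets were higher. TRIM37 and TRIM13, not called by their brightest probe sets, each had a dimmer one that was called. That of TRIM37 was lower, with a mean of 6.28 in mock-induced and 8.29 in parental vehicle cells. That of TRIM13 was higher, at 8.81 and 7.32. The stable line and the parental line differ in selection, passage and sorting as well as in the transgene, and these cannot be told apart.

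TRIM71 showed the largest difference of this comparison. Parental vehicle arrays read 8.66, 8.92, 9.24, 8.80 and 9.08, and mock-induced arrays 4.27, 4.17, 4.54, 4.60 and 4.43. The parental level was 23.3-fold higher (log2 difference −4.54, SE 0.12, adjusted p = 1.05e-08), and induced cells at 5.54 stayed far under it. TRIM6, which supports interferon signalling through free ubiquitin chains, was lower as well. It read 7.85, 8.02, 7.94, 7.93 and 8.04 in parental vehicle arrays and 4.69 to 5.32 in mock-induced arrays, a 7.72-fold difference (adjusted p = 1.54e-07). TRIM59 was 1.76-fold lower (adjusted p = 0.00184). It is the one member called lower in both comparisons.

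TRIM36, a ligase with a COS box known from sperm and microtubules, read 6.27, 5.99, 6.18, 5.69 and 6.19 in parental vehicle arrays and 8.67, 8.81, 8.92, 8.65 and 8.80 in mock-induced arrays. It was 6.53-fold higher in the stable line (adjusted p = 7.97e-07) and read 9.16 ± 0.18 after induction, not called. TRIM56 read 5.08, 5.14, 4.97, 4.59 and 5.03 in parental vehicle arrays and 6.81 to 7.31 in mock-induced arrays, 4.32-fold higher, and rose again with induction. By their brightest probe sets TRIM25 was 3.53-fold higher, from 7.72 ± 0.28 to 9.54 ± 0.13, TRIM35 1.91-fold, TRIM38 1.82-fold and TRIM44 1.58-fold. The other tested probe set of TRIM25 did not differ, with means of 4.47 in parental vehicle and 4.48 in mock-induced cells, both under 4.5. TRIM58, tested only because it was high in mock-induced cells, was at least 1.99-fold higher there, with all parental vehicle arrays at the lowest value. The calls of TRIM35, TRIM38, TRIM44 and TRIM59 were lost on leaving out some single arrays.

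**Figure D4:**
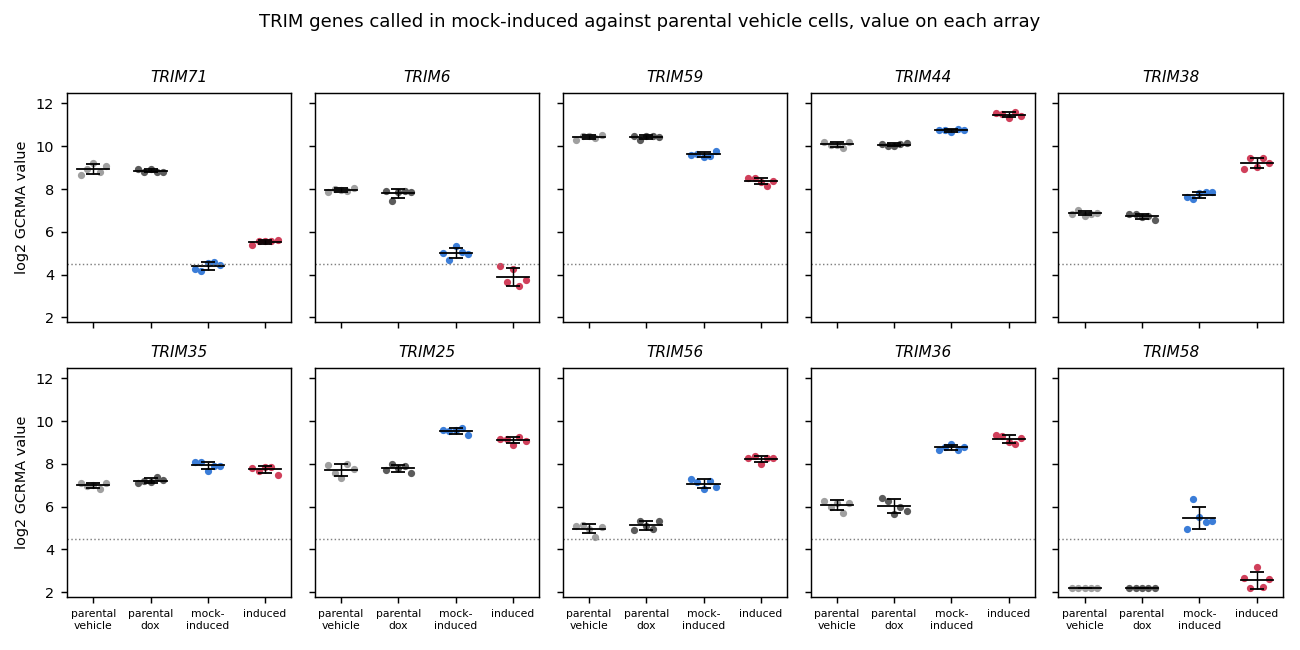
Levels of the 10 TRIM genes called in mock-induced against parental vehicle cells, ordered by log2 difference from negative to positive. The vertical axis is the log2 GCRMA value, points are single arrays, lines with bars are the mean ± SD of 5 arrays, and the dotted line is the filter of 4.5. The parental groups (greys) overlap each other in every panel, and mock-induced arrays (blue) lie apart from parental vehicle arrays in every panel.

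Both comparisons use the mock-induced arrays, so their values for a member are not independent. TRIM38, TRIM44 and TRIM56 were above the parental vehicle level in mock-induced cells (0.86, 0.66 and 2.11) and higher again in induced cells (1.48, 0.73 and 1.16). TRIM58 was higher and then lower (3.31 and −2.93), and TRIM71 lower and then higher (−4.54 and 1.14). Both TRIM58 values rest on the mock-induced group, through which alone it passed the filter. TRIM25, TRIM35, TRIM36 and TRIM6 were called between the lines alone.

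ZFP36 binding sites were mapped in the same study by PAR-CLIP, in which the protein is crosslinked to RNA, and the sites of TRIM59 and TRIM4 are shown as the sequences ZFP36 was found on. They are written as DNA in the sense of the mRNA, in hg19, with TATT (UAUU in RNA, the half-site ZFP36 is known to bind) in capitals.
TRIM59, chr3:160153935-160153957, minus strand, 3′ UTR: TATTatatcaattTATTATTaga
TRIM4, chr7:99488559-99488582, minus strand, 3′ UTR: cactactaacatttcaataTATTt
The TRIM59 site holds the half-site 3 times, and the gene fell by 1.24 after induction. The TRIM4 site holds it 1 time, and the gene was 0.20 higher, not called. A 3′ UTR site with 1 half-site was also listed for TRIM35 (difference −0.19, not called). Whether half-sites in a site go with the change of its gene was not tested. Of the 1026 3′ UTR sites read from that list, which was used in part, 799 (77.9%) held TATT, so these letters do not set the TRIM sites apart. No other member had a 3′ UTR site in the part that was read.

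Promoters were searched for GAAA, any 2 bases and GAAA again, the repeat found in interferon-responsive elements, on both strands from 250 bases before to 50 after the RefSeq start in GRCh38.p14. The search was chosen after the values were seen and is a description of letters. Of 43 members with a promoter sequence, 8 (18.6%) held the motif, against 1195 of 27305 genes (4.38%) and 1255 of 35116 promoter sequences (3.57%). They were TRIM2, TRIM5, TRIM14, TRIM16, TRIM21, TRIM26, TRIM44 and TRIM69. All 8 were called after induction, 3 lower and 5 higher, so genes with these letters moved both ways. Of the 19 tested members with a promoter sequence and without the motif, 8 were called. Of all genes tested 51.9% were called. The share called among all genes with the motif was not computed, so whether the motif goes with a call was not tested. Windows of 30 bases are shown for 2 members that fell and 2 that rose, read along the gene. In each, a match to the reverse complement of the motif is in capitals. TRIM26 has another match that overlaps the one shown and is left partly in lower case.
TRIM5, chr11:5685082-5685111, minus strand: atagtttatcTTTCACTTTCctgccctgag
TRIM14, chr9:98119229-98119258, minus strand: acggccgaggTTTCGGTTTCccttgggagc
TRIM26, chr6:30213575-30213604, minus strand: ctgatttcagTTTCCATTTCgctgcccctg
TRIM69, chr15:44736456-44736485, plus strand: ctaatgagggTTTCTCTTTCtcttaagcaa
In these 4 the motif lies upstream of the start on the strand opposite to the gene. In TRIM2, TRIM16, TRIM21 and TRIM44 it lies on the strand of the gene, and both matches of TRIM21 lie downstream of the start.

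The pathways the antiviral and chromatin members act in were read from lists of other genes. Of 13 tested genes of RIG-I and DNA sensing, 5 rose and 1 fell after induction, a median of 0.62. That is 46.2% called, against 51.9% of all genes and a median of 0.20. RIGI, the RNA sensor that TRIM25 modifies, rose at least 4.96-fold, from 2.65 to 4.03 in mock-induced arrays to 6.67 to 6.99 in induced arrays, and STING1, the adaptor of DNA sensing, rose 4.20-fold. RIGI passed the filter through the induced group alone. TRAF3, a ligase downstream of the sensors, fell 2.35-fold. The second RNA sensor gene, IFIH1, was at least 6.39-fold higher in mock-induced cells than in parental cells given vehicle. Of 19 tested partners of TRIM28 in silencing, 6 rose and 4 fell, a median of 0.09, which is 52.6% called against the same 51.9%. The histone methyltransferase genes EHMT2 and SUV39H1 rose 3.16-fold and 2.71-fold, and the deacetylase genes HDAC2 and HDAC1 fell 4.36-fold and 2.37-fold. Of 3 tested genes that encode TRIM proteins under another symbol, PML, the scaffold of nuclear bodies, rose 2.42-fold, MID2 fell 4.61-fold and MID1, a paralogue of MID2, was not called (−0.03).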

How the data were processed

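RNA of 20 HEK293 samples was hybridized to Affymetrix U133 Plus 2.0 arrays, and the authors deposited log2 values normalized with GCRMA, whose version the sources used here do not give. Probe sets naming 1 gene in the platform annotation (38070 of 50441) were used, 38018 were matched to RefSeq, and the brightest stood for each gene. The 10834 genes whose mean passed 4.5 in any group were fitted with limma 3.58.1 in R 4.3.3, each comparison on its own 10 arrays and the interaction on all 20, after checks on simulated data. A Bonferroni-adjusted p under 0.01 was a call, both limits being those of the study's methods, whose test is not given. The number of arrays limits precision, and p-values measure the spread between samples repeated on separate days. Where all arrays of the lower group were under 4.5, the fold is a bound against 4.5. Genes named in the text are the called members and the fixed lists. The members and lists were chosen with earlier results of these data known. Alternatives covered probe set choice, filter, centring, variance model, adjustment and single arrays. The authors' PAR-CLIP site list gave sequences only.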

Additional observations from a re-analysis of the deposited data

Results flagged for a closer look

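Single arrays far from the other 4 of their group were found in 13 of 136 member and group pairs by Dixon's criterion, which chance gives in about 1 in 20. In mock-induced arrays these were TRIM16 in replicate 5 (7.70, nearest 7.91), TRIM27 in replicate 1 (10.58, nearest 10.46), TRIM46 in replicate 3 (5.01, nearest 4.79) and TRIM5 in replicate 5 (8.68, nearest 8.35). TRIM11 in induced replicate 3 read 9.51, with the nearest array at 9.80. In parental arrays with doxycycline they were TRIM46 in replicate 1 (4.67, nearest 4.79), TRIM5 in replicate 5 (7.58, nearest 7.75) and TRIM6 in replicate 2 (7.44, nearest 7.87). In parental vehicle arrays they were TRIM41 (9.30, nearest 9.58) and TRIM9 (9.18, nearest 9.48) in replicate 1, TRIM46 in replicate 2 (5.01, nearest 4.79), and TRIM68 (7.88, nearest 8.22) and TRIM7 (4.93, nearest 5.45) in replicate 4. TRIM46 sat at 4.79 on most arrays, so a small step is enough to set an array apart.

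The doxycycline difference was not the same in EGFP-ZFP36 and parental cells for 21 members by the interaction term in limma. It was lower in EGFP-ZFP36 cells for TRIM58 (−2.93), TRIM24 (−1.89), TRIM5 (−1.43), TRIM9 (−1.38), TRIM59 (−1.23), TRIM8 (−1.10) and TRIM2 (−0.97). It was higher for TRIM26 (1.78), TRIM32 (1.65), TRIM38 (1.61), TRIM16 (1.45), TRIM69 (1.42), TRIM68 (1.42), TRIM45 (1.36), TRIM21 (1.33), TRIM71 (1.23), TRIM41 (1.22), TRIM16L (1.04), TRIM44 (0.745), TRIM28 (0.71) and TRIM37 (0.59). The cause was not tested.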

How the results depend on the processing

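Called members kept their call under every alternative run for TRIM16, TRIM32, TRIM41 and TRIM68 (induced against mock-induced) and TRIM36, TRIM56 and TRIM71 (mock-induced against parental vehicle), and for 0 of the 21 interaction calls. Of 430, 216 and 642 alternative values in these comparisons, 339, 153 and 559 kept direction and call. Sign turned for TRIM2 when probe sets with the suffix _s_at or _x_at were left out (1.70, interaction 1.71), where another probe set stands for the gene. Centring turned the sign of some small uncalled values, after induction TRIM11 and TRIM52 with either control set and TRIM4 with poly-A controls (−0.33 to −0.03), and between the lines TRIM28 (−0.045) with hybridization controls and TRIM46 with either. For induced against mock-induced (7 lower, 13 higher) the counts were 4 and 7 without a filter, 2 and 4 with a separate spread per group, 4 and 7 with unmoderated statistics, 11 and 22 by Benjamini-Hochberg, and 8 higher with poly-A centring. Between the lines (3 lower, 7 higher) they were 1 and 2 with a separate spread, 12 and 16 by Benjamini-Hochberg, 5 lower with all 4 groups in one model, and 4 higher without a filter, with either centring, with unmoderated statistics or with every probe set tested on its own. For the interaction (7 lower, 14 higher) they were 2 and 0 with poly-A centring, 6 higher with hybridization centring, 3 and 9 with a separate spread, and 12 lower by Benjamini-Hochberg. Doxycycline in parental cells gave 0 throughout.

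The study repeated its experiments on 5 separate days and describes the parental ones as pairs of treated and untreated cells. No source used here ties replicate numbers to those days, and the numbers were not shown to pair the samples. Same-number correlations were 0.02 to 0.22 for induced and mock-induced arrays, 3 of 5 best with their own number. With the numbers as a replicate block, 2 lower and 10 higher were called after induction, 4 higher between the lines, and 4 lower in the interaction. Calls lost there were those of TRIM5, TRIM8, TRIM14, TRIM24, TRIM38, TRIM45, TRIM58 and TRIM71 after induction, TRIM35, TRIM38, TRIM44 and TRIM59 between the lines, and TRIM2, TRIM5, TRIM16L, TRIM24, TRIM28 and TRIM37 in the interaction. Leaving out single arrays gave 5 to 7 lower and 10 to 13 higher after induction, 2 to 3 and 4 to 5 between the lines, and 6 to 7 and 12 to 15 in the interaction. Calls after induction were lost in 9 of 10 such fits for TRIM21 (1.16 to 1.34) and TRIM69 (1.14 to 1.28), in 8 for TRIM8 (−1.25 to −1.08), in 7 for TRIM58 (−3.07 to −2.71) and in 6 for TRIM56 (1.10 to 1.22). Between the lines they were lost in 9 for TRIM35 and TRIM44, 8 for TRIM38 and 6 for TRIM59. Averaging probe sets gave TRIM14 −0.17 and TRIM2 −0.04, both no longer called, TRIM8 −0.62 and TRIM16L 0.59. These averages include probe sets that did not pass the filter. TRIM44 was 0.37 and lost with poly-A centring. Causes were not tested.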
